A study of Mus musculus with 10 samples.

Results

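The genes described here are 35 genes of microglia and macrophages, the resident and recruited phagocytes of the brain, together with the complement and cytokine genes those cells use. They were chosen by name, with earlier results of these data known. The rule kept a gene where its deposited value was above 0 in at least 2 of the 10 libraries. By that rule 26 of the 35 genes were kept, out of 45195 gene IDs in the deposited table and 20128 IDs that met the same condition. Of the 26 genes, 24 reached 1 in 2 or more libraries and were among the 15712 genes tested; Ptprc and Mrc1 were kept by the rule but not tested. Of the other 9 genes, 5 were listed at 0 in every library (Cx3cr1, Tmem119, Trem2, C1qc and Pf4) and 4 were above 0 in 1 library each (Irf8, Aif1, Il1b and Tnf).

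The study sequenced poly(A) RNA from neurites of mouse cortical neurons taken from E16.5 embryos and kept for 8 days on porous membranes with pores of 3 µm. The neurons came from C57BL/6 wild-type embryos or from Cpeb1 flox/flox embryos of the same background, and neurons of both genotypes had been infected at plating with AAV2 that expresses Cre from the ubiquitous CAG promoter, so the wild-type libraries carry the virus and Cre as well. The flox/flox cultures are called knockout, as in the study's design text. Injured neurites were removed by scraping on day 7 and the neurites present 24 hours later were lysed, whereas naive neurites were lysed on day 8 without scraping; injury and the shorter time of growth cannot be told apart. The wild type is represented by 3 naive and 3 injured libraries, and the knockout by 2 of each. The labels do not say that the replicates came from separate cultures or litters, so each p-value reflects the spread among these libraries alone, which may be technical. In such bulk samples, fewer cells of a type and less RNA per cell cannot be told apart.

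The deposited values were read as FPKM, fragment counts divided by transcript length and library depth, with a further scaling factor per library of 0.811 to 1.11. Low values of genes with 1 annotated transcript tended to lie near multiples of 1 fragment, though not exactly on them. If the values are FPKM and not TPM, the best-fitting step gave depths of 21300000 to 27900000 fragments. It gave a value of 0.0331 to 0.0578 for 1 fragment on a transcript of 1 kilobase. Between 12231 and 13143 genes reached 1 in a library. Cpeb1, the targeted gene and a cytoplasmic mRNA-binding protein, was listed at 7.16, 5.96 and 5.86 in naive wild-type, 1.65, 13.8 and 22.6 in injured wild-type, 5.97 and 0.356 in naive knockout and 1.14 and 3.15 in injured knockout libraries. The value of 5.97 goes against the label of knockout naive replicate 1, and a value per gene does not show which exons the fragments came from. Directions below that rest on the library labelled knockout naive 1 carry that limit.

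Microglia arise from yolk-sac progenitors, enter the brain early in development and depend on signalling through the receptor Csf1r and on the transcription factor Spi1, also called PU.1. They sense their surroundings through surface receptors, many of which signal through the adaptor proteins Tyrobp and Fcer1g, and they take up and digest debris in lysosomes rich in cathepsins and lysozyme. On activation they can release complement proteins, chemokines of the Ccl family, interleukin-1 beta and tumour necrosis factor. Neurons themselves are not known for making most of these products.

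PU.1 recognises a short purine-rich sequence, and its presence in the promoters of the genes is shown here because PU.1 is a known regulator of many myeloid genes. RefSeq promoters of build GRCm38.p6, from 250 bases before to 50 bases after the start site, were found for 17 of the 26 genes. The motif AGGAAGT, searched on both strands, was present in the promoters of 7 of the 17 genes, C1qb, Cd53, Ctss, Lyz2, Mrc1, P2ry12 and Ptprc, which is 41.2% of them. It was held by 9.35% of all 32851 promoters. The longer form GAGGAAGT, which contains AGGAAGT, was in 2 of the 17 (Cd53 and Ctss) and in 3.2% of all promoters, and the shorter overlapping form GAGGAA was in 10 of the 17 and in 28.3% of all promoters. A match describes letters and not a bound site. The stretches below run from 120 bases before the start site to 9 bases after it, 5′ to 3′ on the strand of the gene, and the motif is in capitals where it occurs, here always as its reverse complement. It begins 100 bases before the start site of Lyz2 (chr10:117282263-117282392, minus strand), 53 before that of C1qb (chr4:136886191-136886320, minus strand) and 2 before that of Ctss (chr3:95526666-95526795, plus strand). Fcer1g (chr1:171234340-171234469, minus strand) is shown as a gene without it.
Lyz2: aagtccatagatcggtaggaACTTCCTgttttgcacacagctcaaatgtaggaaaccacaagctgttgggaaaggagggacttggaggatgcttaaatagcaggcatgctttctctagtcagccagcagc
C1qb: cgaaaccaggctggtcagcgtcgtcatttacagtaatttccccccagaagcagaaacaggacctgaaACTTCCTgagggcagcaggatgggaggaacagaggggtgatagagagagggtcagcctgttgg
Ctss: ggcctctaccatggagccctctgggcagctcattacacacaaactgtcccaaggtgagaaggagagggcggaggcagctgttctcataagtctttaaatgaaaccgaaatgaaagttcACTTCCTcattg
Fcer1g: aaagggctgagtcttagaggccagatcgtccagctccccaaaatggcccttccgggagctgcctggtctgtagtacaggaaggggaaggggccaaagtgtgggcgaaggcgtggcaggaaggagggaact

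Across the 10 libraries these genes were sparse, and they were listed most often and at the highest values in the 2 naive knockout libraries. Of the 35 genes, 21 and 19 were above 0 in the libraries labelled knockout naive 1 and 2. The same count was 7, 10 and 11 in the naive wild-type, 12, 8 and 9 in the injured wild-type and 12 and 16 in the injured knockout libraries. The naive knockout libraries therefore lay above the other 8 in this count, with no overlap. The summed value of the 35 genes was 45.2, 62.5 and 88.1 in naive wild-type, 46.1, 72.9 and 119 in injured wild-type, 623 and 231 in naive knockout and 106 and 157 in injured knockout libraries. Lyz2 and Lgmn made up most of these sums. Without these genes the sum was 10.7, 9.24 and 22.7 in naive wild-type, 17.6, 20.5 and 25.2 in injured wild-type, 204 and 59.4 in naive knockout and 32.5 and 56.7 in injured knockout libraries. Even in the library labelled knockout naive 1 the genes held only 0.0637% of the column total, against 0.00557% to 0.0109% in naive wild-type libraries.

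**Figure D1:**
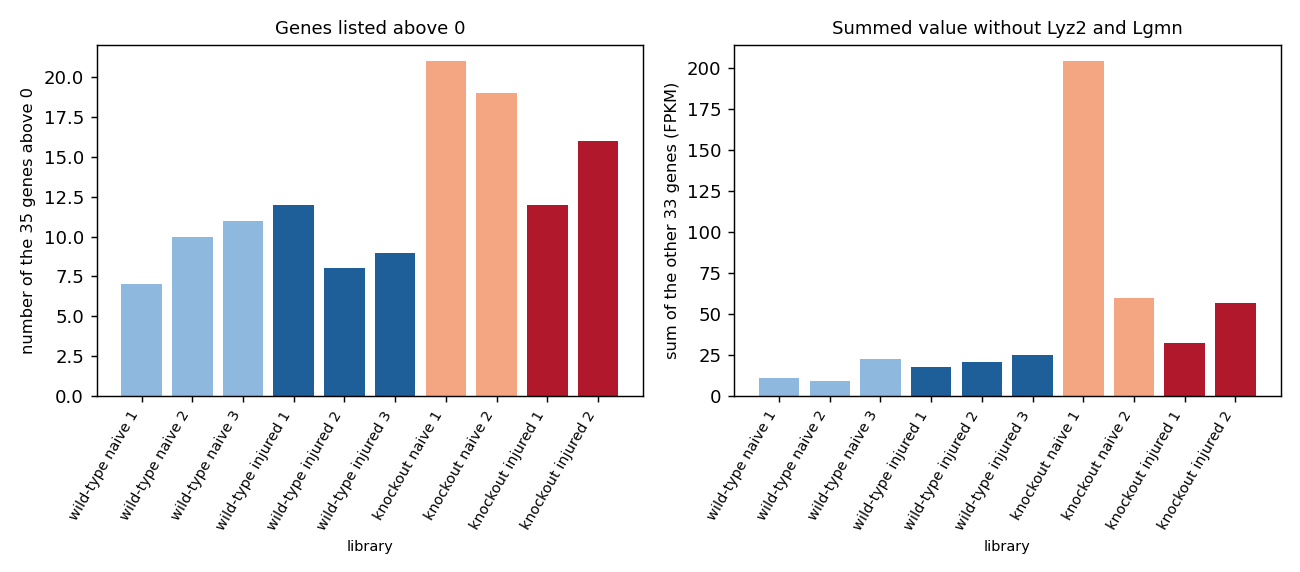
Number of the 35 genes listed above 0 (left) and summed value in FPKM of the 33 genes other than Lyz2 and Lgmn (right), 1 bar per library, coloured by group. The naive knockout libraries stand highest in both panels, at 21 and 19 genes and at 204 and 59.4 FPKM.

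The 2 naive knockout libraries differed from each other. The library labelled knockout naive 1 held the highest value of 12 of the 26 genes kept by the rule, 46.2%, whereas 10.5% of all tested genes had their highest value there. Knockout naive 2 held the highest value of 4 genes. Of the 24 tested genes, 16 were higher in replicate 1 and 7 in replicate 2, and 9 were at 0 in 1 of the libraries only. Over all tested genes, 9.48% were at 0 in only 1 of this pair. That share includes abundant genes, so it is not a like measure for genes near 0. Replicate 1 had a depth of 25600000 fragments, inside the range of the naive wild-type libraries (24800000 to 26100000), and replicate 2 had 21300000, below it.

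**Figure D2:**
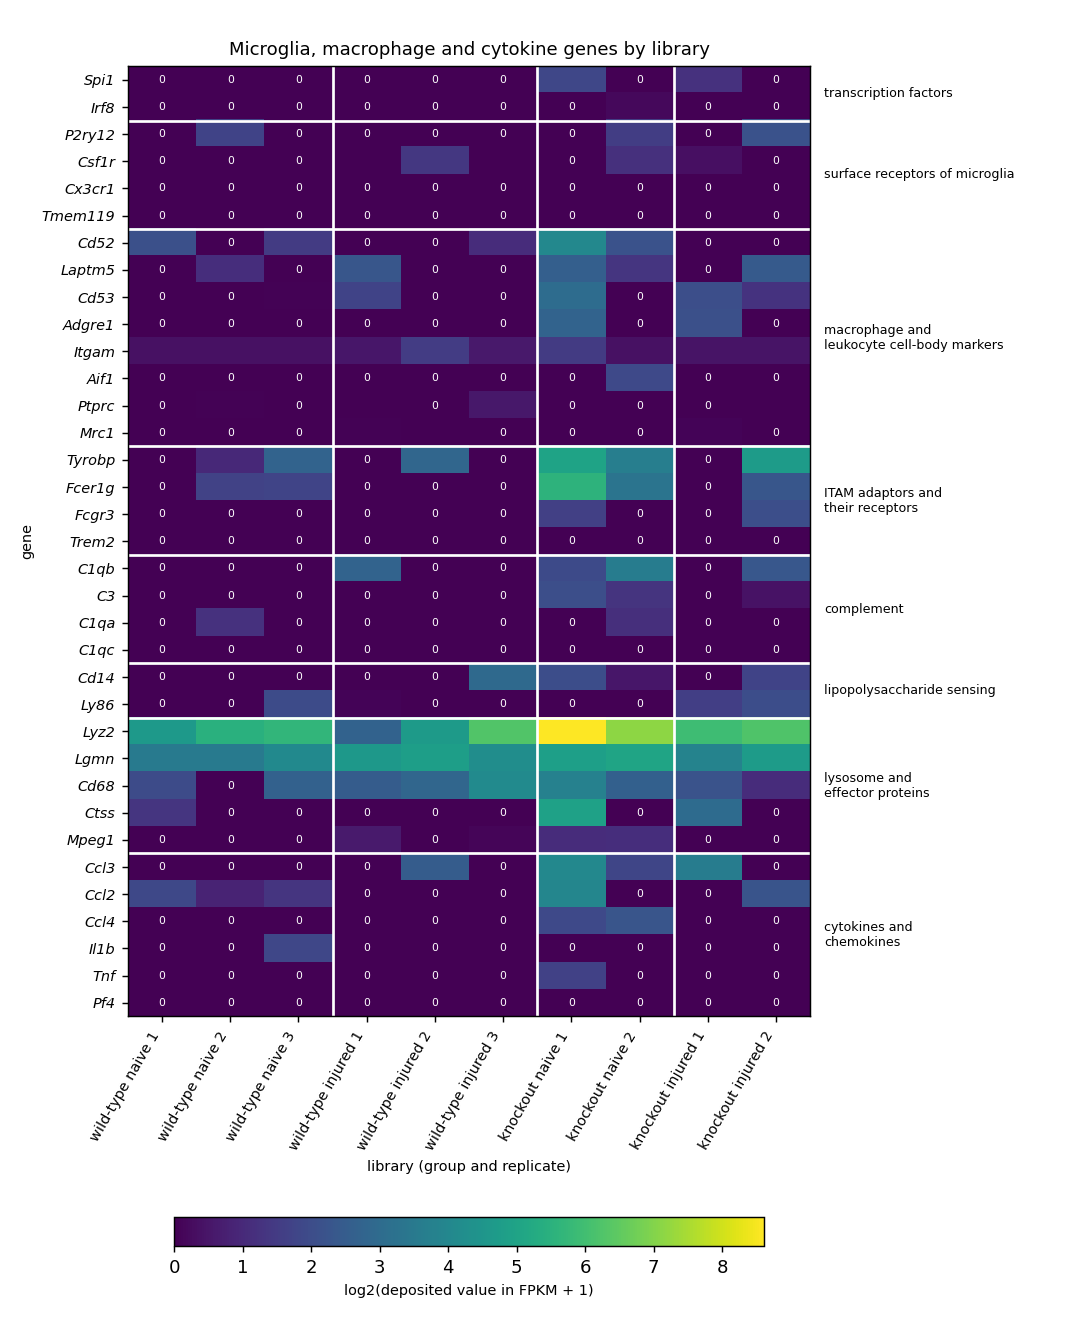
Heat map of the 35 genes (rows, grouped by role) in the 10 libraries (columns, grouped by genotype and injury), with colour for log2(FPKM + 1) and a printed 0 where the deposited value is 0. Lyz2 and Lgmn are above 0 in every column, while many other rows are at 0 in most wild-type columns and filled in 1 or both of the naive knockout columns.

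The lineage-defining transcription factors were above 0 in few libraries, at values of 2.55 or less. Spi1, the PU.1 factor itself, was listed at 2.55 in the library labelled knockout naive 1 and at 1.35 in knockout injured 1, and at 0 in the other 8 libraries. Irf8, which acts with PU.1, was listed at 0.128 in knockout naive 2 and at 0 elsewhere. Neither factor was above 0 in any wild-type library.

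The surface receptors that define microglia were equally rare. Cx3cr1, the fractalkine receptor, and Tmem119, a marker of homeostatic microglia, were at 0 in all 10 libraries. P2ry12, a purine receptor that guides microglial processes, was listed at 2.31 in wild-type naive 2, 1.93 in knockout naive 2 and 3.52 in knockout injured 2. These are single libraries of 3 different groups, and the other 7 libraries were at 0. Csf1r, the receptor for colony-stimulating factor, was at 0 in the 3 naive wild-type libraries, at 0.01, 1.61 and 0.012 in the injured wild-type, 0 and 1.28 in the naive knockout and 0.288 and 0 in the injured knockout libraries. The injured wild-type libraries were all above the naive ones, by a limma log2 difference of 0.47 ± 0.51 (SE) that did not pass the test (adjusted p = 0.734). Exons of Csf1r overlap those of Hmgxb3 on the opposite strand over 873 bases, and Hmgxb3 reached 19.2, so reads of these genes may not have been kept apart.

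Markers of macrophages and leukocytes in general appeared scattered over the groups. Cd52, a small surface glycoprotein, was listed at 3.31, 0 and 1.84 in naive wild-type, 0, 0 and 1.15 in injured wild-type, 15.4 and 3.54 in naive knockout and 0 and 0 in injured knockout libraries. Both naive knockout values lay above all values of the other 3 groups. Laptm5, a lysosomal membrane protein of blood cells, was listed at 0, 1.19 and 0 in naive wild-type, 3.94, 0 and 0 in injured wild-type, 5.04 and 1.5 in naive knockout and 0 and 4.39 in injured knockout libraries. Cd53, a leukocyte tetraspanin, was listed at 0, 0 and 0.03 in naive wild-type, 2.36, 0 and 0 in injured wild-type, 7.2 and 0 in naive knockout and 3.19 and 1.37 in injured knockout libraries. In fragments, Cd53 had about 245 in the library labelled knockout naive 1 and 0 in its replicate.

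Adgre1, the F4/80 antigen, had values in the same libraries as Spi1, 5.72 in the library labelled knockout naive 1 and 3.28 in knockout injured 1, and was at 0 in the other 8. Itgam, the CD11b integrin subunit, was above 0 in every library, at 0.293 to 0.315 in naive wild-type, 0.422, 1.89 and 0.505 in injured wild-type, 1.84 and 0.306 in naive knockout and 0.37 and 0.359 in injured knockout libraries. Of its annotated exon bases, 68.7% are shared with the overlapping gene Gm49368 on the same strand. Ptprc, the leukocyte phosphatase CD45, did not exceed 0.481, reached in wild-type injured 3, and was at 0 in 6 libraries. Mrc1, the mannose receptor of border macrophages, did not exceed 0.072, and Aif1, the Iba1 protein used to stain microglia, was listed at 2.72 in knockout naive 2 and at 0 elsewhere.

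The adaptors with an immunoreceptor activation motif were among the genes with the highest values after Lyz2. Fcer1g (chromosome 1, 171229572 to 171234365, minus strand), the common gamma chain of Fc receptors, was listed at 0, 2.24 and 2.4 in naive wild-type, at 0 in all 3 injured wild-type, at 46.5 and 9.05 in naive knockout and at 0 and 3.9 in injured knockout libraries. Tyrobp (chromosome 7, 30413760 to 30417585, plus strand), the DAP12 adaptor of Trem2, was listed at 0, 0.982 and 5.74 in naive wild-type, 0, 6.19 and 0 in injured wild-type, 30.9 and 11.9 in naive knockout and 0 and 25.2 in injured knockout libraries. For both adaptors the naive knockout libraries lay above every naive wild-type library, and knockout injured 1 was at 0. Fcgr3, a low-affinity Fc receptor that pairs with Fcer1g, was listed at 2.07 in the library labelled knockout naive 1 and 3.24 in knockout injured 2, and at 0 elsewhere. Trem2, the lipid-sensing receptor that signals through Tyrobp, was at 0 in all 10 libraries.

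Of the complement genes, the C1q subunits were listed together in 1 library only, knockout naive 2, where C1qa and C1qb were above 0. C1qb (chromosome 4, 136880129 to 136886187, minus strand) was at 0 in the 3 naive wild-type libraries, 5.62, 0 and 0 in injured wild-type, 2.8 and 11.3 in naive knockout and 0 and 4.05 in injured knockout libraries. The value of 5.62 corresponded to about 103 fragments in a group whose other 2 libraries had none. C1qa was listed at 1.35 in wild-type naive 2 and 1.22 in knockout naive 2 and at 0 elsewhere, and C1qc was at 0 in every library, although the 3 subunits assemble into 1 protein. C3, the central component of the cascade, was at 0 in all 6 wild-type libraries, at 3.23 and 1.44 in naive knockout and at 0 and 0.341 in injured knockout libraries.

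Proteins that bind or assist in sensing bacterial lipopolysaccharide showed no common pattern. Cd14, the co-receptor of Tlr4, was at 0 in the naive wild-type libraries, at 0, 0 and 6.78 in the injured wild-type, 3.07 and 0.425 in the naive knockout and 0 and 2.35 in the injured knockout libraries. Ly86, or MD-1, was the member that went the other way from most: it was listed at 0, 0 and 2.92 in naive wild-type, 0.06, 0 and 0 in injured wild-type, 0 and 0 in naive knockout and 2.06 and 3.1 in injured knockout libraries.

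Lysosomal and effector genes held the highest levels of the 35 genes. Lyz2 (chromosome 10, minus strand), the lysozyme of macrophages, was listed at 23.7, 42.8 and 49.4 in naive wild-type, 5.54, 24.7 and 76.2 in injured wild-type, 390 and 140 in naive knockout and 60.1 and 74.7 in injured knockout libraries. Both naive knockout libraries were above the other 8, and the injured wild-type libraries spanned the range of the naive wild-type ones. In fragments these values ran from about 130 in wild-type injured 1 to about 9464 in the library labelled knockout naive 1. Lyz1, a paralogue with 95.8% identity over 1264 aligned bases, was listed at 2.64 and 0.049 in the naive knockout libraries and at 0 elsewhere, so reads of these copies may have been split.

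Lgmn (chromosome 12, minus strand), the lysosomal protease legumain, was listed at 10.8, 10.5 and 16.1 in naive wild-type, 23, 27.7 and 17.7 in injured wild-type, 28 and 31.3 in naive knockout and 13.6 and 25.5 in injured knockout libraries. The group means were 12.5 ± 3.15 (SD, n = 3), 22.8 ± 5 (SD, n = 3), 29.7 ± 2.33 (SD, n = 2) and 19.5 ± 8.38 (SD, n = 2), so the naive wild-type mean was the lowest. Cd68, a lysosomal membrane protein of phagocytes, was listed at 2.93, 0 and 5.37 in naive wild-type, 4.63, 6.11 and 16.2 in injured wild-type, 12.9 and 5.25 in naive knockout and 3.62 and 1.11 in injured knockout libraries. Here the injured knockout libraries were below every injured wild-type and every naive knockout library. Ctss, the cathepsin of antigen-presenting cells, was listed at 29.6 in the library labelled knockout naive 1 and 0 in its replicate, at 7.02 and 0 in injured knockout, and at 1.54 in wild-type naive 1 with the other 5 wild-type libraries at 0. Mpeg1, the pore-forming perforin-2 of macrophages, was at 0 in the naive wild-type, 0.523, 0 and 0.086 in the injured wild-type, 1.11 and 1.2 in the naive knockout and 0 in both injured knockout libraries.

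Among the cytokines, the chemokines had values in more libraries than interleukin-1 beta and tumour necrosis factor. Ccl4 (chromosome 11), which attracts monocytes and T cells, was listed at 2.77 and 3.78 in the naive knockout libraries, about 25 and 31 fragments, and at 0 in the other 8. Ccl3, its neighbour in the same chemokine cluster, was at 0 in naive wild-type, 0, 4.65 and 0 in injured wild-type, 15.2 and 2.48 in naive knockout and 11.2 and 0 in injured knockout libraries. Ccl2, the main monocyte attractant, was listed at 2.61, 0.802 and 1.54 in naive wild-type, 0 in all 3 injured wild-type, 14.4 and 0 in naive knockout and 0 and 3.69 in injured knockout libraries. Ccl4 was thus above 0 in the naive knockout libraries alone, but without them it would not have been tested. Ccl2 was the 1 chemokine above 0 in every naive wild-type library. Il1b was listed at 2.55 in wild-type naive 3, Tnf at 2.15 in the library labelled knockout naive 1, and both were at 0 elsewhere; Pf4, a platelet and border-macrophage chemokine, was at 0 throughout.

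**Figure D3:**
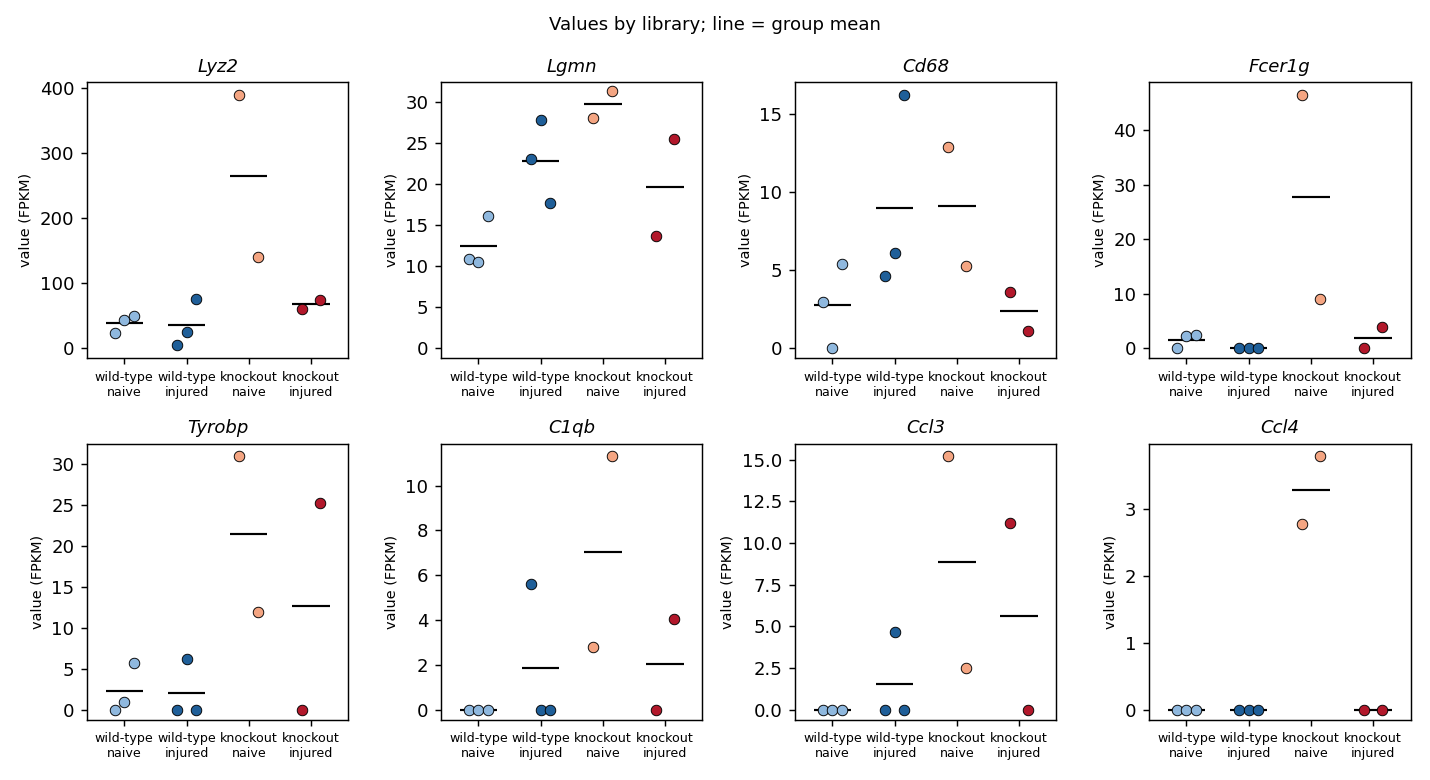
Deposited values in FPKM of 8 genes, 1 point per library and a line at the group mean, on separate linear axes. Both naive knockout points lie above all naive wild-type points for each gene except Cd68, where 5.25 lies under the highest naive wild-type value of 5.37, and the naive knockout points of Lyz2 and Fcer1g lie far apart. These 8 genes were chosen for display. Of the 24 tested genes 12 had this order, 50%, beside 14.1% of all tested genes. Ccl4 would not have been tested without the naive knockout libraries.

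The effect of the genotype in naive neurites was tested by setting naive knockout against naive wild-type libraries in a limma fit of log2(FPKM + 1) over all 10 libraries. None of the 24 genes passed an adjusted p of 0.05 in this comparison, in which 23 of all tested genes, 0.146%, did. Without adjustment, 10 of the 24 had p under 0.05, as did 590 of all tested genes, 3.76%. On this scale 23 of the 24 differences were above 0, with a median of 1.44, beside a median of 0.06 over all tested genes. Of the 24 genes, 9 would not have been tested without the naive knockout libraries, the higher side here, and Ccl4 was among them. Over the other 15 genes the median was 1.68, beside 0.05 over the 15177 genes tested in that way. The values nearest the threshold were those of Ccl4, 2.09 ± 0.46 (SE; limma adjusted p = 0.274), and Fcer1g, 3.30 ± 0.87 (limma adjusted p = 0.646). Tyrobp had a difference of 3.10 ± 1.29, Ccl3 of 2.91 ± 1.06, C1qb of 2.77 ± 0.93 and Lyz2 of 2.63 ± 0.76, and their limma adjusted p-values were between 0.892 and 1. Ly86 was the gene below 0, at -0.66 ± 0.63.

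For 12 of the 24 genes, 50%, both naive knockout libraries lay above all 3 naive wild-type libraries, and over all tested genes this held for 14.1%. These were Laptm5, Cd52, Tyrobp, Fcer1g, C1qb, C3, Cd14, Lyz2, Lgmn, Mpeg1, Ccl3 and Ccl4, from 6 of the 8 roles. No gene had both libraries below, against 8.51% of all tested genes. The filter bears on these counts. C3, Mpeg1 and Ccl4 are among 9 of the 24 genes that would not have reached it without the naive knockout libraries. Of the 15 genes that passed it on the other 8 libraries, 9 did not overlap, 60%, beside 13.7% of the 15177 tested genes that passed in that way. Without the library labelled knockout naive 1, the remaining library was above all naive wild-type libraries for 13 of the 24 genes, 54.2%, beside 27.3% of all tested genes; without knockout naive 2 it was 20 genes, 83.3%, beside 32.3%. These left-out counts were added after the data had been seen, and they kept the genes that passed the filter with all libraries. Among the 13 were Csf1r, C3, Mpeg1 and Ccl4, and among the 20 were Spi1, Adgre1, Itgam, Fcgr3, C3, Mpeg1 and Ccl4. None of these would have reached the filter without the naive knockout libraries, the higher side here, so the counts are raised by it. The median difference was 0.98 over the 17 genes that passed the filter without the library labelled knockout naive 1, and 2.25 over 19 genes without knockout naive 2.

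In knockout neurites, injured and naive libraries were compared to ask how these genes stood 24 hours after scraping. None of the 24 genes passed the threshold, as 9 of all tested genes, 0.0573%, did, and 6 had an unadjusted p under 0.05, beside 5.73% of all tested genes. The differences were below 0 for 20 genes and above 0 for 4, with a median of -0.80, beside -0.09 over all tested genes. Ccl4, at -2.09 ± 0.50 (limma adjusted p = 0.359), Cd52, at -3.11 ± 0.84 (limma adjusted p = 0.481), and Fcer1g, at -3.31 ± 0.95 (limma adjusted p = 0.554), came nearest to it. For 8 genes, 33.3%, both injured libraries lay below both naive ones, namely Cd52, Fcer1g, C3, Lyz2, Cd68, Lgmn, Mpeg1 and Ccl4, beside 22.1% of all tested genes. C3, Mpeg1 and Ccl4 reached the filter only through the naive knockout libraries, the higher side here. Of the 15 genes that passed it on the other 8 libraries 5 lay below without overlap, 33.3%. The share was 21.8% of all genes that passed in that way. The median over these 15 genes was -0.97, beside -0.07 over all genes that passed in that way. Ly86 alone had both injured libraries above, which was so for 13.5% of all tested genes, and it reached the filter only through these libraries. Without the library labelled knockout naive 1, 11 of the 24 genes lay below, 45.8%, beside 35.7% of all tested genes; without knockout naive 2 it was 18, 75%, beside 39%. Without knockout injured 1 it was 9, 37.5%, and the share of all tested genes was 37.5% as well; without knockout injured 2 it was 12, 50%, beside 38%. These left-out counts also kept the genes that passed the filter with all libraries. Among the 11 were Csf1r, C1qa, C3, Mpeg1 and Ccl4, and among the 18 were Spi1, Adgre1, Itgam, C3, Mpeg1 and Ccl4. All of these reached the filter only through the naive knockout libraries. The median was -1.38 over the 19 genes that passed the filter without knockout naive 2. This comparison uses the same naive knockout libraries as the preceding one, so their values are set side by side and neither adds to the other.

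In wild-type neurites the genes stayed on both sides of 0 after injury. None of the 24 passed the threshold, although 149 of all tested genes did (0.948%), and 1 gene, Lgmn, had an unadjusted p under 0.05, as did 13.9% of all tested genes. The median difference was 0, with 10 genes above, 9 below and 5 at exactly 0 because all 6 libraries were at 0. Lgmn differed by 0.83 ± 0.34 (limma adjusted p = 0.309) and Cd68 by 1.60 ± 0.75 (limma adjusted p = 0.366). Every injured library was above every naive library for 3 genes, Csf1r, Itgam and Lgmn, which is 12.5% beside 9.78% of all tested genes. Csf1r and Itgam would not have reached the filter without the injured wild-type libraries, nor without the naive knockout ones. They reached 1 in wild-type injured 2 (1.61 and 1.89) and in 1 naive knockout library (1.28 and 1.84). Ccl2 was the 1 gene with every injured library below, 4.17% beside 8.02%, and its difference was -1.35 ± 0.88 (limma adjusted p = 0.531). These shares were near those of all genes.

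Among injured neurites, knockout and wild-type libraries overlapped for most of the genes. None of the 24 passed the threshold, whereas 41 of all tested genes did (0.261%), and 1 had an unadjusted p under 0.05, as did 10.5% of all tested genes. The differences were above 0 for 15 genes and below for 7, with a median of 0.53, beside -0.05 over all tested genes. The median was 0 without knockout injured 2, 0.97 without the library labelled knockout naive 1 and 1.04 without knockout naive 2, which change the genes that pass the filter. Ly86, at 1.80 ± 0.63 (limma adjusted p = 0.338), was the 1 gene with both knockout libraries above (9.72% of all tested genes), but it reached the filter only through these libraries. Itgam and Cd68 were the 2 with both below, 8.33% beside 12.2% of all tested genes. Itgam would not have reached the filter without the injured wild-type libraries, the higher side here. Lyz2 stood at 1.53 ± 0.76 (limma adjusted p = 0.506), with 60.1 in the lower knockout library and 76.2 in the highest wild-type one. Tyrobp, Ccl3, Ctss, Fcgr3, C1qb and Fcer1g were each at 0 in 1 of the injured knockout libraries and above 0 in the other. In all, 14 of the 24 tested genes were split in this way, beside 11.9% of all tested genes in that pair. That share includes abundant genes, so it is not a like measure for genes near 0.

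The difference between the injury effects, knockout minus wild type, was also fitted. It passed the threshold for 0 of the 24 genes and for 0 of all tested genes (0%), of which 979, 6.23%, had an unadjusted p under 0.05, as 5 of the 24 did. The median was -1.12, with 20 genes below 0, beside -0.13 over all tested genes. It was -0.74 without the library labelled knockout naive 1 and -1.77 without knockout naive 2. The filter bears on these values, because 9 of the 24 genes would not have reached it without the naive knockout libraries. High values there lower this difference. Cd68 stood at -3.17 ± 1.18, Lgmn at -1.46 ± 0.54, Ly86 at 2.45 ± 0.89 and Ccl4 at -2.09 ± 0.645, each with a limma adjusted p of 0.791. C3 stood at -1.47 ± 0.674 (limma adjusted p = 0.8). Ccl4 and C3 would not have reached the filter without the naive knockout libraries, nor Ly86 without the injured knockout ones.

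**Figure D4:**
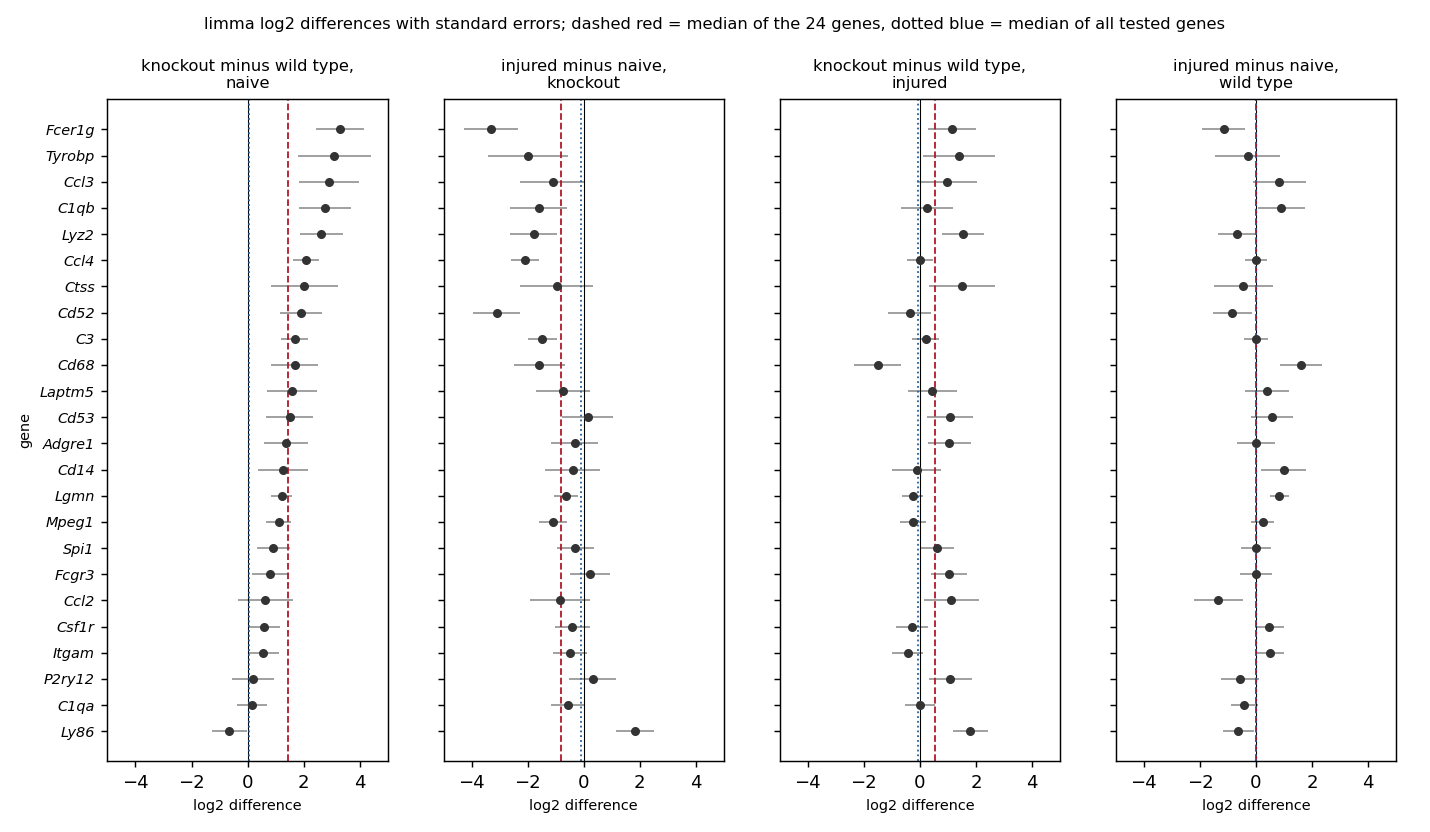
limma log2 differences on the log2(FPKM + 1) scale, with standard errors, of the 24 tested genes (rows) in 4 comparisons (panels), the dashed line at the median of the 24 genes and the dotted line at that of all tested genes. In the naive genotype panel 23 of 24 points lie above 0, and in the knockout injury panel 20 lie below 0. Of the 24 genes, 9 would not have been tested without the naive knockout libraries. No gene passes a limma adjusted p of 0.05 in any panel.

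The knockout groups also allowed the genes to be set beside the motif that Cpeb1 is known to bind, the cytoplasmic polyadenylation element of 3′ untranslated regions, taken as TTTTAT or TTTTAAT on the transcript strand in the longest GENCODE M21 3′ untranslated region of each gene. Of the 24 tested genes 7 held it, 29.2%: Adgre1, Ccl3, Cd53, Cd68, Itgam, Lgmn and Mpeg1. Of 13119 tested protein-coding genes 63% did. The 3′ untranslated regions were shorter here, with a median of 384 bases beside 1383. Among the 7 were both genes without overlap between the naive genotypes (Ccl3, Lgmn and Mpeg1) and genes with overlap (Adgre1, Cd53, Cd68 and Itgam), and Ccl4, Fcer1g, Tyrobp, C1qb and Lyz2 were without the element. The element nearest the transcript end is shown in capitals for 3 genes, 5′ to 3′, on mm10 coordinates: Lgmn (chr12:102394126-102394155, minus strand), Cd53 (chr3:106759988-106760017, minus strand) and Ccl3 (chr11:83648030-83648059, minus strand).
Lgmn: attgcttttataTTTTATtctgtaataatg
Cd53: tccatgtctatgTTTTATttctctattaaa
Ccl3: ttttgtaatttaTTTTATtgtcatacttgt

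Further markers of the same cells, from a separate list of 30 microglia and macrophage genes, were also sparse. Only 12 of the 30 could be tested, 0 passed the threshold in any comparison, and 9 of the 12 were above 0 in the naive genotype comparison, with a median of 0.54. Siglech, Cd33, Slco2b1, Cd163 and F13a1 were at 0 in every library. The list's highest gene, Coro1a, an actin-binding protein also found outside leukocytes, ranged from 67 to 134, and it dominated the list's sum, which was 107 to 116 in naive wild-type and 146 and 115 in naive knockout libraries.

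Ligands, regulators and neighbours of the pathway showed their own changes. Of 38 further cytokine, chemokine and NF-kB genes, 26 were tested, and 1 passed the threshold: Nfkbia, the inhibitor of NF-kB, rose with injury in wild type from 10.9, 32.8 and 19.9 to 86.3, 74.9 and 81.7 (limma adjusted p = 0.0183). Of 18 ligands and partners of the receptors 16 were tested and 2 passed in that comparison. Lgals3, a galectin of activated phagocytes and reactive glia, rose from 0 in all 3 naive libraries to 5.29, 11.2 and 34.2 (limma adjusted p = 0.0297). In knockout libraries it was listed at 7.87 and 6.72 in naive and 2.72 and 17.1 in injured neurites, so both naive knockout libraries were above the naive wild-type ones, by 3.05 ± 0.80 (limma adjusted p = 0.646). Cd47, the signal on cells that restrains phagocytosis, fell from 67.5, 71.5 and 102 to 27.8, 39.3 and 21.2 (limma adjusted p = 0.0304). In knockout libraries Cd47 went from 92.2 and 104 to 42.8 and 31.7, by -1.39 beside -1.43 in wild type. Nfkbia went from 23.6 and 23.9 to 30.7 and 47.8 there, by 0.67 beside 2.01 in wild type. Neither passed in knockout injury (limma adjusted p = 0.367 and 0.942). Il6, Ccl12 and Ccr2 were at 0 in every library. Of 19 further complement genes with values, 10 were tested and 0 passed in any comparison, with 6 above 0 and 4 below in the naive genotype comparison and a median of 0.08. Of 20 lysosomal genes that most cells express, all were tested and 0 passed in any comparison; in the naive genotype comparison 13 were above 0, with a median of 0.19.

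Markers of other cell types were read in the same libraries. The summed value of 16 astrocyte markers was 734 to 966 in naive wild-type, 994 and 898 in naive knockout and 1119 to 2484 in injured wild-type libraries, and that of 14 neuron markers was 4087 to 4542, 5109 and 4734, and 2735 to 3590 in the same order. The sum of 13 radial glia and progenitor markers was 2430 to 2975 in naive wild-type and 4406 and 3298 in naive knockout libraries. It was 2731 to 5124 in injured wild-type and 3986 and 4064 in injured knockout libraries. The naive knockout libraries were thus above the naive wild-type ones in this sum, with the higher value in replicate 1. Most of the sum was 1 gene, Fabp7, at 2237, 2106 and 2580 in naive wild-type and 3958 and 2985 in naive knockout libraries. The order of the sums therefore rests largely on Fabp7. Of the 12 progenitor genes tested, 7 were above 0 and 5 below in the naive genotype comparison, with a median of 0.16, and 0 passed the threshold there. Genes of the astrocyte, progenitor and neuron lists that passed the threshold did so with injury in wild type: Sox9 rose from 12, 11.3 and 13.9 to 45.9, 37.4 and 63.7 (limma adjusted p = 0.0141) and Vim from 67.6, 109 and 169 to 308, 320 and 644 (limma adjusted p = 0.0435), while Gad1, an enzyme of inhibitory neurons, fell from 76.9, 72.9 and 78.6 to 5.5, 16.9 and 8.59 (limma adjusted p = 0.00396). In knockout neurites the injury difference was 0.50 for Sox9, 0.83 for Vim and -2.82 for Gad1, beside 1.87, 1.88 and -2.895 in wild type. That of Gad1 in knockout had a limma adjusted p of 0.0559. No tested gene passed the threshold for the difference between the injury effects. The sum of 17 lymphocyte, neutrophil and erythroid markers was 1.85 to 3.14 in naive wild-type and 1.59 and 1.79 in naive knockout libraries. That of 14 endothelial and mural markers was 4.16 to 80.6 and 58.9 and 15.4, that of 10 fibroblast and meningeal markers 22.1 to 27.2 and 21.6 and 25.2, and that of 13 oligodendrocyte-lineage markers 174 to 192 and 235 and 129. No gene of these 4 lists passed the threshold in any comparison. The share of each cell type in the differences above was not tested.

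The genes whose pattern was most like that of the 24 tested genes were sought among all other tested protein-coding genes, by Pearson's r over the 10 libraries between log2(FPKM + 1) and the mean standardized profile of the 24. They were Il10rb (r = 0.968), a subunit of the interleukin-10 receptor, Rspo1 (0.929) and Wnt3a (0.921), both secreted ligands of Wnt signalling, Rala (0.915), a small GTPase, and Agt (0.909), angiotensinogen. Without the library labelled knockout naive 1 the r of Il10rb was 0.91 and those of Rspo1 and Wnt3a were 0.749. Il10rb was listed at 10.4 and 2.27 in naive knockout, 0 and 2.74 in injured knockout, 0.247 in wild-type injured 2 and at 0 in the other 5 libraries. Rala, at 76 to 90.7 in wild-type and 115 and 106 in naive knockout libraries, was the abundant gene of the 5. Rspo1 was listed at 4.8 and 1.65 and Wnt3a at 2.46 and 1.23 in the naive knockout libraries, and both were at 0 elsewhere. Of the 5, Rala alone would have been tested without the naive knockout libraries. Among the 24 genes behind the profile, 9 would not have been tested without them either. Such a selection favours a high r. All 5 genes share the same 10 libraries, and the r describes them only.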

How the data were processed

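RNA of 10 neurite libraries was measured by Smart-seq2. The authors deposited FPKM values per Ensembl gene ID, and per the submitters' processing notes STAR 2.4.2a, RSEM 1.2.21 and build mm10 were used; what each did is not given in the sources used here. FPKM cannot be told from TPM by these values, and the depths assume FPKM. Symbols were matched for 44548 of 45195 IDs. The authors' column scaling was kept. limma 3.58.1 (R 4.3.3) was fitted to log2(FPKM + 1), with 4 group means and a mean-variance trend, over genes of at least 1 in at least 2 libraries, with Benjamini-Hochberg adjustment over all 15712 and a threshold of 0.05. A fold on this scale understates changes of low genes. The fit was tested on simulated data. The design names all 35 genes, Cpeb1, the 4 highest genes and any called gene of each of 12 other lists, and the 5 genes most alike. The members and lists were chosen with earlier results of these data known. Copies were sought with blastn 2.17.0. Alternatives changed the scaling, pseudocount, filter, trend, groups fitted, replicate block and libraries. PCR fragments without molecular identifiers are not independent molecules.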

Additional observations from a re-analysis of the deposited data

Results flagged for a closer look

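Lgmn was the 1 gene whose injury effects differed between the genotypes by the order of the libraries, 4.17% of the 24 beside 1.37% of all tested genes with wild type above and knockout below. Every wild-type injured library (17.7 to 27.7) was above every wild-type naive one (10.5 to 16.1), whereas both knockout injured libraries (13.6 and 25.5) were below both knockout naive ones (28 and 31.3). The difference between the injury effects was -1.46 ± 0.54 on the log2 scale, with a limma p of 0.018 and an adjusted p of 0.791 over all tested genes, so it did not pass the threshold.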

How the results depend on the processing

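None of the 24 genes passed the threshold under another scaling, pseudocount, set of groups fitted, the replicate block or any left-out library, except as follows. Ccl4 passed in naive neurites with no filter (limma adjusted p = 0.00119), with the filter above 0 in 2 libraries (0.00138) and with no mean-variance trend (0.0262), and C3 passed with these filters (0.0457 and 0.0401). In knockout injury Ccl4 passed with the same filters (limma adjusted p = 0.00441 and 0.0074), and its interaction passed with no filter (0.03). In naive neurites the Ccl4 difference stayed at 2.087, while its standard error fell from 0.456 to 0.144 with no filter. Ccl4 was at 0 in 8 libraries. Neither Ccl4 nor C3 would have been tested in the main fit without the naive knockout libraries, where they were highest. These passes therefore add no separate support. Over all genes, the calls were 25 (wild-type injury), 33 (knockout injury), 52 (naive genotype) and 13 (interaction) with no filter. With the filter above 0 they were 43, 18 and 51 for the first 3. With no trend they were 77 for wild-type injury, 1 for knockout injury and 3 for the interaction. With only the groups compared they were 17, 0, 15 and, for the injured genotype, 15. Knockout injury gave 4 with quantile normalization, 1 with a pseudocount of 0.1 and 5 with the replicate block, which changed no other count by over 1.5 times. Same-numbered libraries did not deviate together (correlations between -0.05 and 0.04), so the numbers were not taken to pair them.

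The members' medians with a pseudocount of 0.1 were -1.59 (knockout injury), 2.88 (naive genotype), 1.31 (injured genotype) and -1.997 (interaction), and with a pseudocount of 5 they were -0.37, 0.58, 0.17 and -0.45. With a minimum of 5 they were -1.59, 2.70, 1.06 and -1.81. With no filter that of the injured genotype was 0.12. With each library left out in turn, calls ranged from 35 to 311 (wild-type injury), 0 to 20 (knockout injury), 24 to 57 (injured genotype) and 0 to 2 (interaction). The medians ranged from -1.38 to -0.54 (knockout injury), 0.98 to 2.25 (naive genotype), 0 to 1.04 (injured genotype) and -1.77 to -0.74 (interaction). Of the values of single genes under these settings, 2250 kept their side of the threshold, of which 12 went to 0 and 9 left 0, 63 changed sign without being called and 8 became called. Depth limits what a 0 means, since 1 fragment per kilobase is worth 0.0331 to 0.0578. Zeros also stood beside values of many fragments. Cd53 had about 245 fragments in the library labelled knockout naive 1 and 0 in its replicate, at depths of 25600000 and 21300000. The source of such zeros was not tested.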
